A study of Mus musculus with 2 samples.

Results

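Insulin-low beta cells were described here in dissociated islets of mouse pancreas. They are cell barcodes in which the insulin transcripts of Ins1 and Ins2 together made up at least 1% and less than 30% of all UMIs (unique molecular identifiers, each counting 1 captured transcript), while Gcg, Sst and Ppy, the transcripts of glucagon, somatostatin and pancreatic polypeptide, each stayed below 1%. The members were thus chosen by measured values, their shares of hormone UMIs. Of 1483 cells, 55 met this rule, 31 in library 1 and 24 in library 2. They were set against 317 insulin-high beta cells, with 30% insulin or more under the same limits for the other hormones, of which library 1 held 151 and library 2 held 166. All cells came from control C57BL/6J mice aged 8 weeks, with no treatment in any group, and both libraries are technical replicates of 1 islet preparation made by RevGel-seq, in which each cell is joined to a barcoded bead and held apart from others in a reversible hydrogel. The p-values below therefore measure only the technical spread between these libraries, since no second set of animals was compared. The islets had been handpicked and then dissociated with trypsin before capture.

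Beta cells take up glucose, phosphorylate it and turn the resulting rise in metabolism into calcium entry and release of insulin granules. Mature beta cells express the transcription factor Mafa and the peptide Ucn3, both of which are low in immature rodent beta cells. Beta cells of 1 islet are known to differ from each other in insulin content and in how far these maturity genes are expressed. Because insulin transcripts chose the groups and take up a large part of each beta cell's UMIs, Ins1 and Ins2 were removed before scaling. Levels are given as non-insulin CPM, the UMIs of a gene scaled to a total of 1000000 UMIs over all genes except Ins1 and Ins2, in the counts summed over the cells of a group in 1 library.

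In library 1 the insulin-low cells made up 4.22% of the cells, with a 95% exact Clopper-Pearson interval of 2.88% to 5.93%. In library 2 they made up 3.21%, with an interval of 2.07% to 4.74%. The mean was 3.71% ± 0.714 (SD, n = 2). Such intervals cover counting error only. Among single-hormone insulin cells the share was 17.0% in library 1 (11.9% to 23.3%) and 12.6% in library 2 (8.26% to 18.2%). Most members lay near the upper limit. In library 1, 22 of the 31 had between 20% and 30% insulin, 7 had between 10% and 20% and 2 had between 5% and 10%. In library 2 these numbers were 19, 3 and 1, with 1 further cell between 1% and 5%. The 5 cells just inside the limit had 29.3% to 29.9% insulin and the 5 just outside had 30.1% to 30.9%, so the limit cut through a continuous distribution. A further 52 of the 107 cells between 1% and 30% insulin were left out for another hormone, 32 of them for Ppy, 26 for Sst and 7 for Gcg, some for more than 1.

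**Figure D1:**
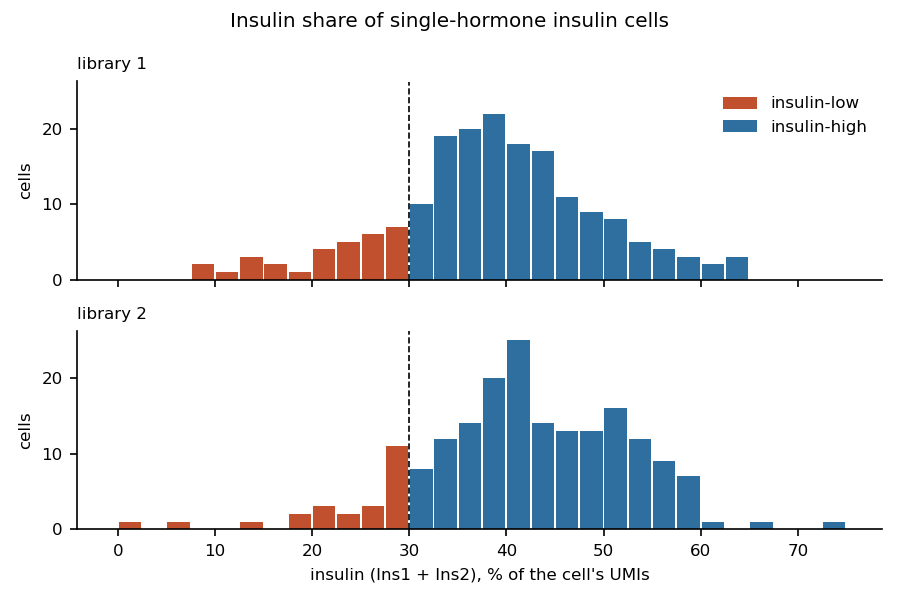
The number of single-hormone insulin cells (y axis) by the insulin share of the cell's UMIs in percent (x axis, bars 2.5 points wide), for library 1 above and library 2 below. The dashed line is the 30% limit between the 55 insulin-low cells (red) and the 317 insulin-high cells (blue), and no gap separates them in either library.

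The rule used the insulin share, so the following depths are a description. The median insulin share was 22.9% in library 1 and 26.3% in library 2, against 40.8% and 43.2% in insulin-high cells. The median insulin-low cell held 4831 and 4336 insulin UMIs, against 8648 and 8271 in insulin-high cells, a ratio of 0.541 ± 0.0243 (SD, n = 2). Its UMIs of all other genes were more numerous, with medians of 19052 and 12466 against 11041 and 9821, a ratio of 1.73 in library 1 and 1.27 in library 2. Against the insulin-high group as a whole, a low share therefore came with fewer insulin UMIs and more other UMIs in both libraries. The second ratio differed more between libraries than the first. Next to the limit the libraries differed in other UMIs. Cells with 20% to 30% insulin had medians of 17874 and 12174, and those with 30% to 40% had 13543 and 15020.5. After each cell had been thinned to 2000 non-insulin UMIs, the median insulin-low cell had 1336 and 1339 genes against 1313 and 1314, which is 1.81% ± 0.0798 more, while without thinning the surplus was 27.4%. That small surplus depended on the limit, since with an upper limit of 20% insulin, chosen after seeing the data and leaving 9 and 5 cells, it was −2.82% in library 1 and 1.75% in library 2. Mitochondrial transcripts had median shares of non-insulin UMIs of 0.799% and 0.757% against 0.534% and 0.506%, and in the sums 0.867% and 0.810% against 0.738% and 0.700%. With the 30% limit and all cells of both groups, both libraries had the same order in each of these values. None of these differences was tested, because the smallest two-sided p of an exact permutation test of 2 against 2 libraries is 0.33.

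The ratio of the insulin genes to each other differed slightly. Ins2 made up 87.2% of insulin UMIs in both libraries of the insulin-low cells and 85.4% in both libraries of the insulin-high cells, a difference of 1.79 percentage points ± 0.0342 (SD, n = 2). The 2 values of each group did not overlap, which was not tested. With an upper limit of 20% insulin, which left 9 and 5 insulin-low cells, the difference was 2.71 points in library 1 and 0.911 in library 2. Its size thus depended on the limit more than this SD shows. Ins1 is a near copy of Ins2, so part of their reads could have been assigned to the wrong gene.

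The label of beta cell was checked against marker genes. Single UMIs of these genes do not separate the islet cell types, as Iapp, the amyloid peptide stored with insulin, had a UMI in all 55 insulin-low cells but also in 91.8% and 92.5% of cells with glucagon alone, so levels are compared. Nkx6-1, a homeodomain factor of beta cells, stood at 1082 and 1005 non-insulin CPM in insulin-low cells, at 63.1 and 48.7 in glucagon-only cells, at 25.9 and 9.06 in cells with somatostatin alone and at 250.1 and 269.6 in cells with pancreatic polypeptide alone. Pdx1, which activates the insulin genes, stood at 295 and 250 in insulin-low cells, at 4.90 and 1.06 in glucagon-only, at 139 and 139 in somatostatin-only and at 24.5 and 19.7 in polypeptide-only cells. Both levels were above those of the other single-hormone cells in both libraries. Markers of alpha, delta and gamma cells were not uniformly absent, and they are described with the higher genes below. The 5 genes given as marking these cells followed no common direction. Iapp stood at 38166 and 43417 non-insulin CPM against 51246 and 50536 in insulin-high cells. Mlxipl, the glucose-responsive factor ChREBP, stood at 1170 and 1434 against 928 and 902. Pdyn, the opioid peptide precursor prodynorphin, stood at 166 and 68.3 against 103 and 74.9. None of these 3 passed the test described below (adjusted p = 0.0695, 0.0598 and 0.426, edgeR). Pcsk1, which cleaves proinsulin, was lower, a call lost without 5 cells described below (adjusted p = 0.0777) and with library as a block (0.0543). Cpb2, a carboxypeptidase, was higher, but 65.2% of Cpb2 UMIs of the insulin-low group came from 3 cells.

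Some members also carried transcripts of cells that are not endocrine. In 5 of the 55, the summed markers of acinar, ductal, endothelial, leukocyte and stellate cells reached 0.5% of non-insulin UMIs, and in 0 of the 317 insulin-high cells. Leukocyte markers reached 1.18% in a cell of library 1 that held 69432 non-insulin UMIs, the most of any member, and 4.18% in the library 2 cell with the lowest insulin share, 2.02%, which had no Nkx6-1 UMI and therefore goes against the label. Endothelial markers reached 0.893% to 1.34% in 3 cells of library 1. For the leukocyte list the summed level was 0.136% and 0.187% in the insulin-low sums against 0.0126% and 0.0129%, and for the endothelial list 0.135% and 0.0364% against 0.0236% and 0.0211%. The acinar list summed to 0.00047% and 0.00598% against 0.0013% and 0.00113%, with Prss2 and Cpa1 at 0 UMIs in the insulin-low cells but Cela1 at 0 and 54.1 non-insulin CPM against 6.25 and 1.48, and 1 cell of library 2 reached 0.106%. The ductal list summed to 0.109% and 0.127% against 0.117% and 0.122%, with Krt19 at 0. The stellate list summed to 0.0151% and 0.00057% against 0.00658% and 0.00202%, with Col1a1 and Pdgfrb at 0, and it reached 0.0992% to 0.249% in the 3 cells with endothelial markers. The doublet caller marked none of the 372 cells of both groups. It marked few cells at all, leaving 734 of 735 unmarked in library 1 and 741 of 748 in library 2. Whether any of the 372 barcodes, among them the 5 with non-endocrine markers, held more than 1 cell was not tested further. Counts of gene lists are given below also without these 5 cells where they differ.

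Genes were tested with edgeR's quasi-likelihood test on 4 sums of counts, the insulin-low and insulin-high cells of each library, with Benjamini-Hochberg adjustment over all genes and a threshold of 0.05. Of 11321 genes tested, 519 were called (4.58%), 283 of them higher (2.5%) and 236 lower (2.08%) in insulin-low cells, and 2165 had an unadjusted p under 0.05. The median log2 fold change of all genes was 0.01. More than 2-fold differences were found for 229 of the higher and 125 of the lower genes. Of the 283 higher genes, 112 had over 50% of their insulin-low UMIs in 3 cells. Without the 5 cells with non-endocrine markers, 731 of 11059 genes were called (6.61%), 372 higher (3.36%) and 359 lower (3.25%). They included 187 of the 283 higher and 213 of the 236 lower genes, but only 28 of the 112. The count also depended on single sums, since leaving out the insulin-high cells of library 1 or library 2 left 131 or 128 calls, and leaving out the insulin-low cells of library 2 gave 1516.

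Of the gene lists examined, that of mature beta cell function held the most lower calls. Of 23 tested members of a list of beta maturity and function genes, 16 were lower, 2 were higher and 5 were not called, so 78.3% were called beside 4.58% of all genes, with a median log2 fold change of −1.18 against 0.01. Without the 5 cells 16 were lower and 1 higher. Tmem215, a membrane protein gene used as a marker of mature beta cells, was at 40.8 and 37.0 non-insulin CPM in insulin-low cells of libraries 1 and 2 and at 342 and 336 in insulin-high cells, 8.90-fold lower (log2 fold change −3.15 ± 0.19 SE, edgeR adjusted p = 4.87e-06). Ucn3, urocortin 3, the peptide with which beta cells restrain themselves through delta cells, was at 111 and 120 against 679 and 599, 5.77-fold lower (−2.53 ± 0.15, adjusted p = 4.87e-06). In both genes the 2 insulin-low values were close to each other and far below the 2 insulin-high values.

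Genes of the glucose-sensing steps were lower in part. Slc2a2, the glucose transporter GLUT2, was at 213 and 285 non-insulin CPM against 784 and 815 (3.40-fold lower, edgeR adjusted p = 4.42e-05). G6pc2, the islet glucose-6-phosphatase that opposes glucose phosphorylation, was at 671 and 717 against 2264 and 2120 (3.28-fold lower, adjusted p = 9.14e-06). Trpm5, a calcium-activated cation channel, was at 58.0 and 45.5 against 334 and 336, 6.50-fold lower. Sytl4, the granule protein granuphilin, was at 154 and 79.7 against 643 and 624, 5.28-fold lower. Slc30a8, the zinc transporter of insulin granules, was at 794 and 748 against 1457 and 1370, 1.89-fold lower. Of the 2 higher members, Sez6l was at 513 and 549 against 283 and 287, and Cd24a had 82.5% of its insulin-low UMIs in 3 cells.

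Among transcription factors of beta cell identity the difference was uneven. Mafa, which activates the insulin genes and the genes of glucose-stimulated secretion, was at 293 and 117 non-insulin CPM in insulin-low cells against 1424 and 1402, 6.66-fold lower (log2 fold change −2.74 ± 0.24, edgeR adjusted p = 5.89e-05). Nkx6-1 was lower by a smaller amount, 1082 and 1005 against 1470 and 1594 (1.52-fold, adjusted p = 0.00871). Of 20 tested factors, 2 were lower and 1 higher (15.0% called), and 17 were not called. Without the 5 cells 2 were lower and 3 higher. Pdx1 was not called with all cells, at 295 and 250 against 348 and 350 (log2 fold change −0.39 ± 0.13, adjusted p = 0.134), and Neurod1 at 384 and 404 against 422 and 431 (−0.17 ± 0.12, adjusted p = 0.501).

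**Figure D2:**
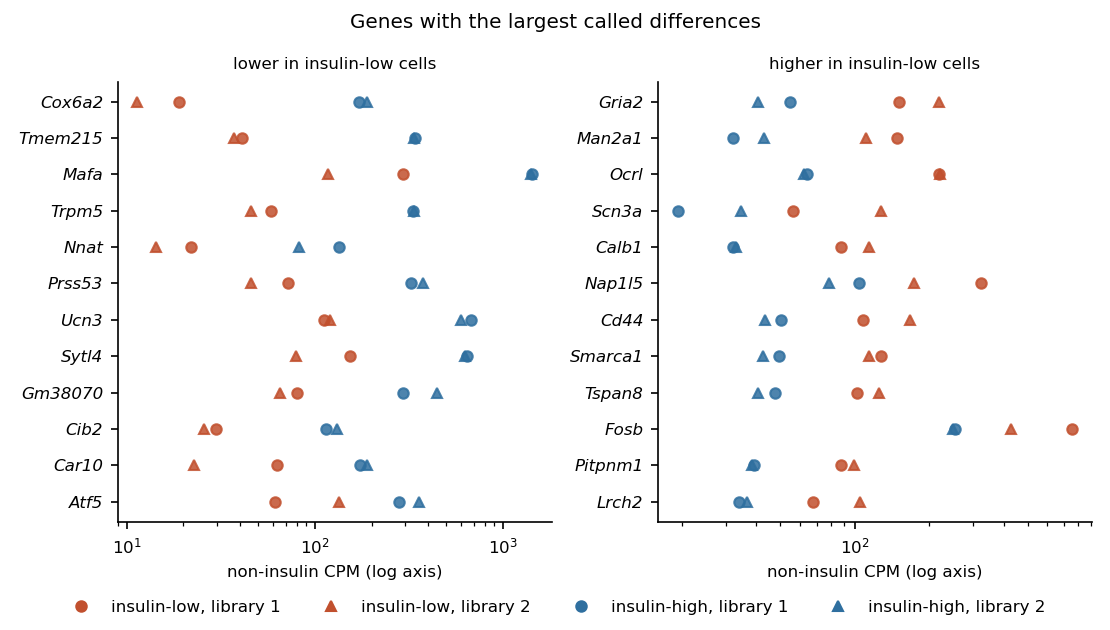
Non-insulin CPM (x axis, log scale) of the 12 lower and 12 higher genes with the largest called differences (rows), in the summed insulin-low (red) and insulin-high (blue) cells of library 1 (circles) and library 2 (triangles). Genes were chosen for a difference in the same direction in both libraries, so the plot shows its size, from 2.26-fold for Lrch2 to 11.5-fold for Cox6a2.

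Mafa and Ucn3 were missing from many of the insulin-low cells. Mafa had a UMI in 16 of 31 insulin-low cells of library 1 (51.6%, 95% exact interval 33.1% to 69.8%) and in 4 of 24 of library 2 (16.7%, 4.74% to 37.4%), but in 148 of 151 and 160 of 166 insulin-high cells. After thinning to 2000 non-insulin UMIs, Mafa was seen in 35.5% and 16.7% of insulin-low cells against 82.8% and 84.3%. Cells with glucagon alone, which should lack Mafa, had a UMI in 1.65% and 5.17%, at median non-insulin depths of 16357 and 19505 UMIs. The share in insulin-low cells was above that background in library 1, while in library 2 its interval reached down to the glucagon-only share. Among the Mafa UMIs of insulin-low cells, 56.6% came from 3 cells. Ucn3 had a UMI in 35.5% and 33.3% of insulin-low cells and in 90.1% and 89.8% of insulin-high cells, with 3.30% and 3.45% in glucagon-only cells. G6pc2 had UMIs in 90.3% and 87.5% of insulin-low cells, at a median of 525 and 694 non-insulin CPM per cell against 2038 and 1924, and after thinning to 2000 UMIs in 48.4% and 50% against 94.7% and 94.6%.

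The members differed among themselves in Mafa, and they are divided here by it after the values were seen, as a description with no test. Of the 35 insulin-low cells without a Mafa UMI, library 1 held 15 and library 2 held 20, and of the 20 with a Mafa UMI 16 and 4. The split is thus uneven between libraries, and values are given for library 1 and library 2. A Ucn3 UMI was found in 0 and 4 cells without Mafa and in 11 and 4 with it. A UMI of Rbp4 was found in 11 and 17 without Mafa and in 10 and 1 with it. G6pc2 stood at 304 and 547 non-insulin CPM in the former and at 1097 and 1633 in the latter. Pyy stood at 3005 and 2329 in the former and at 603 and 181 in the latter. Iapp was alike, at 38320 and 43219 against 37987 and 44482. The median non-insulin depth was 20155 and 12466 UMIs in the former and 17874 and 13148.5 in the latter, so its order differed between libraries. The median insulin share was 18.8% and 25.1% in the former and 24.8% and 29.0% in the latter. It was thus lower in the cells without Mafa in both libraries.

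**Figure D3:**
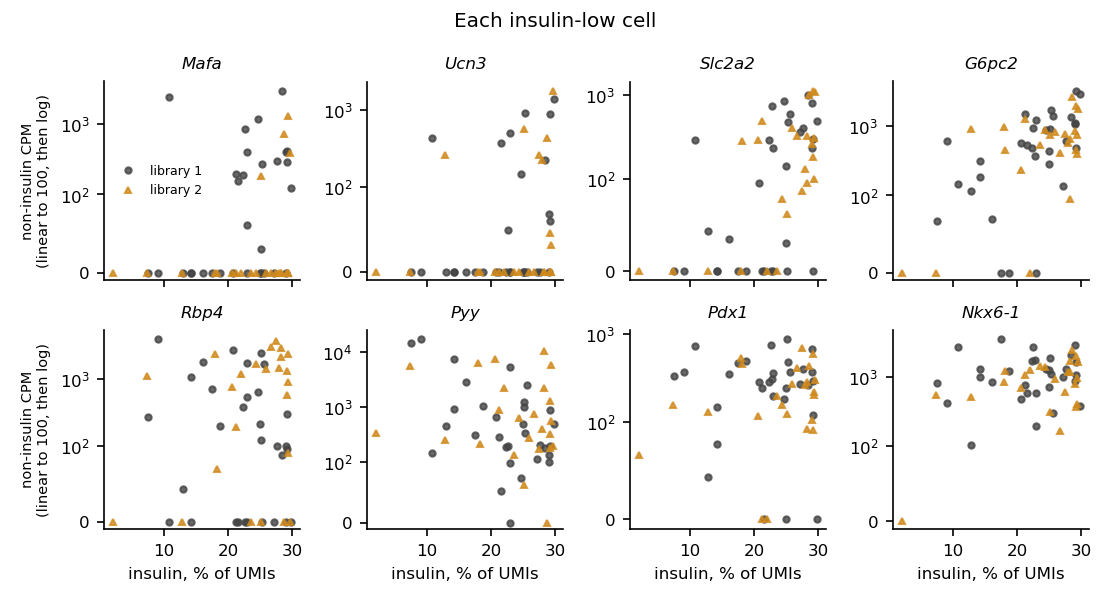
Non-insulin CPM of 8 genes (y axis, linear up to 100 and logarithmic above) in each of the 55 insulin-low cells, by insulin share of the cell's UMIs in percent (x axis), for library 1 (grey circles) and library 2 (orange triangles). Mafa, Ucn3 and Slc2a2 are at 0 in many cells over the whole range, and Nkx6-1 is at 0 only in the cell with the lowest insulin share.

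The upstream sequences of genes on which these results turn are given for reference, taken from RefSeq on GRCm38.p6 as the 250 bases before the annotated start, 5′ to 3′ on the gene's strand. Capitals mark matches on either strand to TGCTGA, the half-site of large Maf factors, or to CATCTG, an E-box of the kind bound by Neurod1. The motifs do not overlap each other in these sequences. Ins1 is shown because it is part of the rule, Ucn3 and G6pc2 as lower genes and Pyy as the higher gene with the smallest p. They lie at chr19:52264047-52264296 (plus strand), chr13:3945350-3945599 (minus), chr2:69210823-69211072 (plus) and chr11:102107833-102108082 (minus).
Ins1: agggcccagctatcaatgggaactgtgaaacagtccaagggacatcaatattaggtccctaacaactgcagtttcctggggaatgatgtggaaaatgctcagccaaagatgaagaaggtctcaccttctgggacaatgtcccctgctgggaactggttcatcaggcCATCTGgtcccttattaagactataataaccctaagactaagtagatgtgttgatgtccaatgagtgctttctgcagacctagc
Ucn3: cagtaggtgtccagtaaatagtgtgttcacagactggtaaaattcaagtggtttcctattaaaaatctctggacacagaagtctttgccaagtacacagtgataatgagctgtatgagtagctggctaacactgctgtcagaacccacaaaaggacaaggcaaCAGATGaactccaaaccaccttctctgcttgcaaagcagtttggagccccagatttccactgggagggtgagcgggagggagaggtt
G6pc2: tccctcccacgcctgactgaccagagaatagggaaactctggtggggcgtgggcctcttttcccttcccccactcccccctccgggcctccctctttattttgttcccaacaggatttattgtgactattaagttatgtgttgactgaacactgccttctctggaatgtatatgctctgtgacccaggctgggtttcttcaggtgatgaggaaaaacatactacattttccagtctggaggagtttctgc
Pyy: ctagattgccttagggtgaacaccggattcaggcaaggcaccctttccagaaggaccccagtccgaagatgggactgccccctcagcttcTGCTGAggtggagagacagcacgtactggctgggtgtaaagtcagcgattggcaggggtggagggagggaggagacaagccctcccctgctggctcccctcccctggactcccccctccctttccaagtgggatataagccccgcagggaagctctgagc

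These windows hold an E-box in Ins1 and in Ucn3, a Maf half-site in Pyy and neither motif in the G6pc2 window shown. RefSeq has a second G6pc2 start, whose window at chr2:69219699-69219948 holds 2 half-sites and 2 E-boxes, so the count depends on the start used. Over 32851 promoter windows of the same length, 16.1% held the half-site and 14.4% the E-box. Of the 12 lower genes with the largest differences, 9 had a sequence, of which 1 held the half-site and 2 the E-box, and of the 12 higher genes 10 had a sequence, of which 2 held the half-site and 1 the E-box. Matches of this kind are a description of these windows and not of binding. No upstream sequence of Mafa was at hand. The gene lies on chromosome 15 at 75745490 to 75748228 (GENCODE M21, GRCm38).

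Most tested genes of immature beta cells were higher, and markers of the other endocrine cell types were mixed. A list of immature or dedifferentiated beta cell genes held 23 genes, of which 22 were in the data and 10 passed the filter on low counts. A gene near 0 in insulin-high cells passes that filter only where it is higher in insulin-low cells. The share called is therefore not one of the whole list. Of the 10 tested, 7 were higher and 1 lower (80.0% called, median log2 fold change 1.40), with the same counts without the 5 cells. Pyy, peptide YY, a gut and islet hormone of the neuropeptide Y family, was at 1892 and 1992 non-insulin CPM in insulin-low cells against 278 and 294, 6.56-fold higher (2.71 ± 0.11, edgeR adjusted p = 2.07e-07). Rbp4, the retinol binding protein that delta cells make in quantity, was at 624 and 1042 against 106 and 186, 5.41-fold higher (2.44 ± 0.26, adjusted p = 0.000275). Cd44, a hyaluronan receptor, was at 108 and 168 against 50.5 and 43.4, 2.73-fold higher. The lower gene was Npy, neuropeptide Y, with 0 UMIs in insulin-low cells and 256 in insulin-high cells, at least 20.5-fold lower with 3 counts over the insulin-low group as the floor. However, 91.8% of the insulin-high Npy UMIs came from 3 cells.

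For scale, the other endocrine cells held the following levels of these genes. Cells with somatostatin alone had 5762 and 5439 non-insulin CPM of Rbp4, and cells with glucagon alone had 936 and 899. Pyy stood at 34925 and 26629 in cells with pancreatic polypeptide alone and at 11496 and 11720 in somatostatin-only cells. Pyy was spread unevenly, with 42.8% of its insulin-low UMIs in 3 cells, yet the median insulin-low cell also had more of it, 344 and 475 non-insulin CPM against 164 and 179. Of 17 alpha cell markers in the data 9 passed the filter on low counts. Among these 9, 4 were higher and 2 lower (66.7% called, beside 4.58% of all genes). Their summed level was 0.152% and 0.176% of non-insulin UMIs against 0.192% and 0.193%. Irx2, a homeobox factor of alpha cells, was at 36.1 and 54.1 against 0.961 and 7.88, while Ttr, transthyretin, was lower at 969 and 1150 against 1584 and 1559. Of 15 delta markers 5 passed the filter, with 2 higher and 1 lower (60% called). Of 10 gamma markers 5 passed it, with 3 higher (60% called), among them Etv1 at 80.0 and 82.5 against 18.3 and 21.7. As for the immature list, a marker near 0 in insulin-high cells passes only where it is higher in insulin-low cells. The shares called are therefore not ones of the whole marker lists. The hormones themselves were bounded by the rule, and the summed Ppy level below that bound was 2557 and 2006 against 1240 and 1261, and that of Gcg 982 and 1024 against 1382 and 1283. The part of this Ppy difference in the higher Pyy level was not tested.

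The 12 higher genes with the largest differences that did not rest on a few cells included synaptic, calcium and lipid genes. Gria2, a subunit of AMPA glutamate receptors, was at 151 and 219 non-insulin CPM against 54.8 and 40.4, 3.63-fold higher (1.86 ± 0.23, edgeR adjusted p = 0.000678). Ocrl, an inositol polyphosphate 5-phosphatase, was at 218 and 222 against 63.9 and 62.6, 3.35-fold higher (1.74 ± 0.16, adjusted p = 9.96e-05). Calb1, the calcium buffer calbindin, was at 87.8 and 114 against 32.2 and 33.0. Man2a1, a Golgi mannosidase, was at 147 and 111 against 32.2 and 42.9. Scn3a, a voltage-gated sodium channel, was at 56.5 and 128 against 19.2 and 34.5. The others were Nap1l5, Cd44, Smarca1, Tspan8, Fosb, Pitpnm1 and Lrch2, from 2.26-fold to 2.74-fold higher. Gria2 was also at 742 and 759 in glucagon-only cells, and Ocrl at 584 and 652 in somatostatin-only cells.

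The 12 lower genes with the largest differences, chosen in the same way, included genes of various other roles. Cox6a2, a cytochrome c oxidase subunit otherwise typical of muscle, showed the largest difference among these 12, 18.8 and 11.4 non-insulin CPM against 172 and 189 (11.5-fold lower, edgeR adjusted p = 2.31e-05), and 5 of the 55 cells had a UMI of it. Nnat, the imprinted membrane protein neuronatin, was at 22.0 and 14.2 against 134 and 82.8. Atf5, a stress-related transcription factor of the ATF family, was at 61.2 and 134 against 279 and 359. Prss53, Cib2, Car10 and Gm38070 were 5.83-fold, 4.49-fold, 3.94-fold and 5.11-fold lower. Gm38070 overlaps Il1r1 on the same strand and Prss53 overlaps Gm21974, so their counts are uncertain. Some other named genes, among them Atf5 and Atp2a2, also overlap annotated genes on 1 or both strands.

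Immediate early genes, which are transcribed within minutes of stimulation or tissue dissociation, were higher than in insulin-high cells. Of 32 tested immediate early and heat shock genes, 12 were higher and 0 lower (37.5% called, median log2 fold change 0.55), and 14 of 30 without the 5 cells. Fos was at 1365 and 1269 non-insulin CPM against 720 and 588 (1.95-fold higher, edgeR adjusted p = 0.000920). Egr1 was at 1122 and 1135 against 601 and 572 (1.86-fold, adjusted p = 0.000638), and Fosb at 758 and 430 against 254 and 250 (2.33-fold). The heat shock gene Hspa1a was at 897 and 743 against 717 and 770 and was not called (adjusted p = 0.706). The summed level of the list was 1.70% and 1.54% of non-insulin UMIs against 1.14% and 1.16%. It was higher still in the other cells, so this level is not particular to the insulin-low cells. Glucagon-only cells had 2.19% and 2.05%, somatostatin-only cells 2.04% and 2.06%, and polypeptide-only cells 2.55% and 2.81%. Cells with no hormone at 1% had 2.67% and 2.41%. Of the mitochondrial transcripts, whose share of non-insulin UMIs is given above, 1 of 10 tested was called (10%, beside 4.58% of all genes). It was mt-Nd1, at 1076 and 894 against 689 and 647. Next to the 30% limit its level was alike, 865 and 903 in cells with 20% to 30% insulin and 870 and 901 between 30% and 40%. Between 40% and 50% it was 536 and 524.

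Genes of the secretory machinery were called in both directions. Of 24 tested genes of granule cargo and prohormone processing, 2 were higher and 4 lower (25% called, beside 4.58% of all genes), with a median log2 fold change of 0.00, and 4 higher and 3 lower without the 5 cells. Chga, chromogranin A, was at 31266 and 31701 non-insulin CPM against 33014 and 30082, and Pcsk2, the second proinsulin convertase, at 4889 and 5330 against 4863 and 4906, neither called. Pcsk1 was at 435 and 435 against 616 and 589 (1.43-fold lower, edgeR adjusted p = 0.0282), but passed neither without the 5 cells (adjusted p = 0.0777) nor with library as a block (0.0543). Cells with 20% to 30% insulin had 499 and 482 of it, against 525 and 531 between 30% and 40%. Closest to the limit the order was the other way, 549 and 529 between 25% and 30% against 479 and 495 between 30% and 35%. Scg2, secretogranin II, was at 6431 and 7052 against 9367 and 8893, with an adjusted p of 0.0183 that became 0.0665 with the block. Resp18, a granule protein, was higher at 3024 and 3796 against 2066 and 1952, and so was Pam, the amidating enzyme of peptide hormones, at 744 and 891 against 483 and 510. Of 28 exocytosis genes 5 were lower, Sytl4 among them, and 0 higher by edgeR (17.9% called), with 3 higher at an unadjusted p under 0.05. Without the 5 cells 4 were lower and 3 higher, so the direction of that list was not one-sided.

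Of 26 channel and calcium-handling genes of glucose-stimulated secretion, 5 were higher and 3 lower (30.8% called, beside 4.58% of all genes). Abcc8, the sulfonylurea receptor subunit of the KATP channel, was at 756 and 788 non-insulin CPM against 539 and 477 (1.47-fold higher, edgeR adjusted p = 0.0207). Its pore subunit Kcnj11 was at 166 and 145 against 158 and 152 and was not called, and the calcium channel Cacna1d was at 322 and 282 against 275 and 327 and was not called. Atp2a3 and Atp2a2, which pump calcium into the endoplasmic reticulum, were 2.19-fold and 2.09-fold lower, with Atp2a2 at 554 and 629 against 1223 and 1154.

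Fewer genes of the endoplasmic reticulum and of glucose metabolism were called than of the maturity list. Of 45 tested genes of protein folding and the unfolded protein response, 3 were lower and 1 higher (8.89% called, beside 4.58% of all genes), and 4 lower and 1 higher without the 5 cells. Ero1lb, the beta cell form of the oxidase that drives disulfide formation, was at 1020 and 700 non-insulin CPM against 2385 and 1975 (2.59-fold lower, edgeR adjusted p = 0.000430), while the chaperone Hspa5 was at 4296 and 3813 against 3657 and 3742 and was not called. Atf3 was higher with 71.9% of its insulin-low UMIs in 3 cells. Of 22 ChREBP and glucose-response genes, 3 were higher and 1, G6pc2, lower (18.2% called), and 4 higher and 2 lower without the 5 cells. Txnip, a thioredoxin-binding protein that ChREBP induces, was at 728 and 652 against 230 and 234 (2.88-fold higher, adjusted p = 3.71e-05). Mlxipl itself was called only without the 5 cells (adjusted p = 0.00118). Of 41 glycolysis and citric acid cycle genes, 1 was called (2.44%), Ldha, whose UMIs in insulin-low cells all came from 3 cells. Of 84 nuclear oxidative phosphorylation subunits 4 were lower (4.76% called), and 13 of 83 were lower and 1 higher without the 5 cells. The median log2 fold change of 77 cytosolic ribosomal protein genes was 0.11, with 0 called by edgeR and 6 higher and 1 lower at an unadjusted p under 0.05. Without the 5 cells that median was −0.34 with 9 lower, so the sign of the group turned with those cells. Of 7 nuclear-retained long noncoding RNAs 0 were called by edgeR, with 3 higher and 1 lower at an unadjusted p under 0.05, and 3 were called higher without the 5 cells.

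Of 23 antioxidant and metallothionein genes, 1 was higher and 2 lower (13.0% called), and 3 were higher and 3 lower without the 5 cells. Gpx3, a secreted glutathione peroxidase, was at 416 and 549 non-insulin CPM against 136 and 131 (3.43-fold higher, edgeR adjusted p = 5.89e-05). The zinc-binding metallothionein Mt1 was at 587 and 526 against 1226 and 1077 (2.13-fold lower, adjusted p = 0.000355), and Mt2 was at 267 and 196 against 409 and 386. Of 16 proliferation genes 1 was lower (6.25% called, beside 4.58% of all genes). It was Ccnd2, cyclin D2, at 1837 and 1776 against 3054 and 3021, whereas UMIs of Mki67 and Top2a in insulin-low cells came from 1 cell each.

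Several higher lists rested on the 5 cells with non-endocrine markers. Of 28 leukocyte markers 9 passed the filter on low counts, and 6 of these were higher (66.7% called, beside 4.58% of all genes). They were led by Cd74, the invariant chain of antigen-presenting cells, at 276 and 663 non-insulin CPM against 8.65 and 7.39, and 99.3% of its insulin-low UMIs came from 3 cells. Without the 5 cells 0 of 2 tested leukocyte markers were called. Of 15 interferon and antigen presentation genes 5 were higher (33.3% called), and 1 of 13 without those cells, Irf1 at 132 and 93.9 against 36.5 and 46.3 with all cells. B2m, the light chain of MHC class I, had 83.6% of its insulin-low UMIs in 3 cells. Of 27 genes that beta cells normally keep silent 5 passed the filter. Among them 3 were higher (60% called) with all their insulin-low UMIs in 3 cells or fewer. Without the 5 cells 0 of 2 tested silent genes were called. In these lists too, a gene near 0 in insulin-high cells passes the filter only where it is higher in insulin-low cells. The shares called are therefore not ones of the whole lists.

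**Figure D4:**
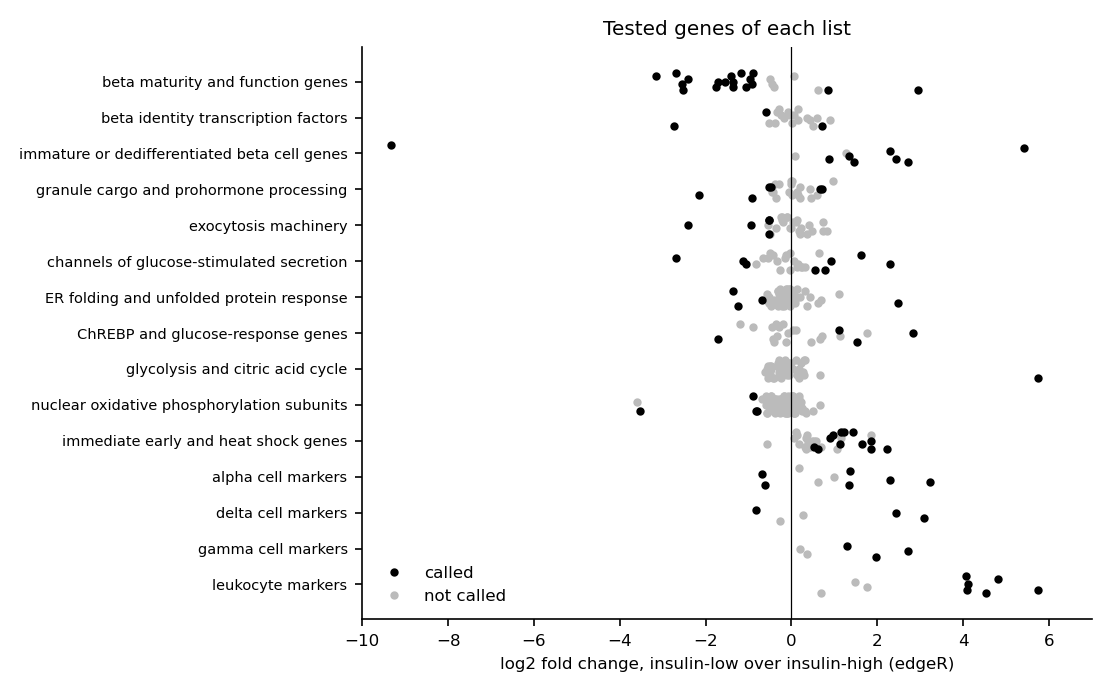
The log2 fold change of insulin-low over insulin-high cells (x axis, edgeR) for each tested gene (point) of 15 gene lists (rows), black where called at an adjusted p under 0.05 and grey where not. Maturity genes lie mostly to the left of 0, immediate early genes and genes of immature beta cells mostly to the right, and the leukocyte markers at the far right rest on a few cells.

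The level of several genes was followed over bins of insulin share, as a description. Mafa in library 1 and library 2 was at 95.4 and 0 non-insulin CPM in cells with 10% to 20% insulin, at 402 and 147 between 20% and 30%, at 1379 and 1163 between 30% and 40%, and at 1519 and 1574 between 40% and 50%. Slc2a2 was at 307 and 331 between 20% and 30%, at 779 and 866 between 30% and 40%, and at 532 and 552 above 50%. In both genes the largest step between neighbouring bins from 20% upwards lay at the 30% limit, and neither was steadily higher above 40%. Even close to the limit the levels differed, since Mafa was at 400 and 192 in cells with 25% to 30% insulin and at 1131 and 881 in those with 30% to 35%. Ucn3 was higher in each further bin, from 571 and 501 between 30% and 40% to 789 and 631 and then to 920 and 766 above 50%. Fos was lower in each further bin from 20% upwards, from 1425 and 1126 between 20% and 30% through 813 and 875 to 668 and 412 and then to 358 and 291 above 50%. The mitochondrial transcript mt-Co1 was between 1079 and 1159 from 20% to 40% insulin and lower beyond, at 628 and 633 between 40% and 50% and at 249 and 231 above 50%. These bins hold 3 to 71 cells each, and depth moved with them, with median non-insulin UMIs of 7153 and 7088 above 50% insulin.

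**Figure D5:**
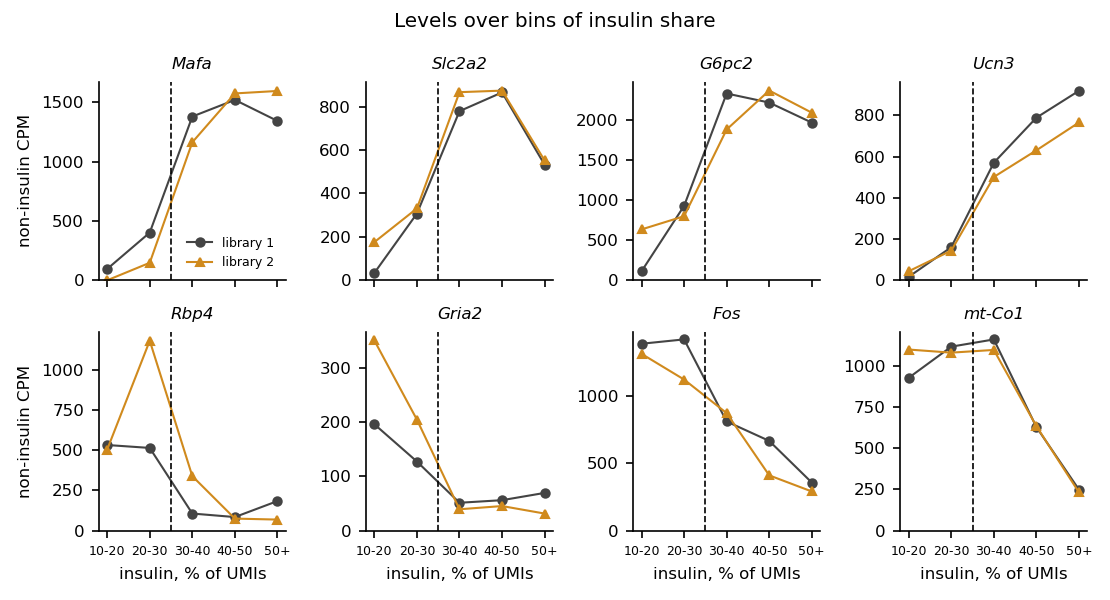
Non-insulin CPM of 8 genes (y axis, from 0) summed over single-hormone cells in bins of insulin share in percent (x axis), for library 1 (grey circles) and library 2 (orange triangles). The dashed line is the 30% limit, across which Mafa, Slc2a2, G6pc2 and Ucn3 are higher to the right, while Fos is lower to the right and mt-Co1 lower only above 40%.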

How the data were processed

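The authors deposited whole-number UMI counts per gene and cell barcode, 1 table for each of 2 libraries. Per the study's methods, the Cytonaut software chose barcodes at a knee in depth with UMI-tools, aligned reads to exons of GRCm38, deduplicated them and assigned them to genes, so barcodes below the knee and intronic reads are not in the counts. Library 1 held 15931154 UMIs in 735 cells and library 2 held 17440292 in 748, with 0 shared barcodes. No further filter on cells was applied. Doublets were called per library with Scrublet (scanpy 1.11.5, Python 3.11.15) and kept.

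Groups followed the insulin rule given above. Counts were summed per group and library, without Ins1 and Ins2, and these 4 sums were compared by the quasi-likelihood test of edgeR 4.0.16 (R 4.3.3), after filterByExpr and TMM scaling and with 2 residual degrees of freedom. Gcg, Sst and Ppy were not tested. The script was tested on simulated data. The sums of 1 library share a preparation, which pairs them by design, and their deviations correlated with r = 0.10 over 11321 genes, so library as a block was run beside it. Named genes were the 5 given markers, the 12 higher and 12 lower called genes with the largest fold change at a mean of at least 50 non-insulin CPM, the same direction in both libraries and no more than 25% of the higher group's UMIs in 3 cells, and core or leading members of gene lists. The members and lists were chosen with earlier results of these data known. Gene coordinates are from GENCODE M21, which held 99.8% of the 33038 identifiers. Some genes of these lists are counted but not reported here by name.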

Additional observations from a re-analysis of the deposited data

How the results depend on the processing

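The number of called genes depended on the setting more than the direction of single genes did. Against 519 calls (283 higher, 236 lower), DESeq2 gave 259 (140, 119), sums of 24 cells each 107 (53, 54) and cells thinned to 2000 UMIs 117 (56, 61). Insulin UMIs kept in the library sizes, with TMM scaling left out as well, gave 2361 (2265, 96). The last is by construction, since every other gene is then scaled down in the insulin-high group. Without a filter on low counts 185 were higher, with an upper limit of 20% insulin 153 were lower, and without cells with non-endocrine markers 359 were lower. Leaving out 1 sum gave 128 to 1516 calls, 67 to 778 of them higher and 61 to 738 lower, lowest without either insulin-high sum (131 and 128) and highest without the insulin-low sum of library 2. With library as a replicate block, 438 genes were called (249 higher, 189 lower), and of 91 named genes with a call 87 remained called in the same direction. That number was 71 with DESeq2, 78 without the cells with non-endocrine markers, 61 with the 20% limit, 42 with thinned cells, 41 with equal cells, 76 with insulin kept, 77 without the filter, and 49 and 43 without the insulin-high sum of library 1 and of library 2.

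Chga turned to 0.41 on the log2 scale with insulin kept and no TMM scaling, where by construction every other gene is scaled down in the insulin-high group. Leaving out 1 sum moved Mki67 from −8.405 to 2.978, Top2a from −9.415 to 3.356 and Cd24a from −0.2464 to 3.633, each lowest, and opposite in sign to its value over all sums, without the insulin-low sum of library 1. Lrch2 turned to −0.22 with the 20% limit and B2m to −1.12 without the cells with non-endocrine markers, which by construction removes the cells that held most of its UMIs. As given above, UMIs of Mki67 and Top2a in insulin-low cells came from 1 cell each, and most of those of Cd24a from few cells. The cause of the turn of Lrch2 was not tested. The share of cells was 0.946% with the 20% limit. The surplus of genes per cell was 27.4% without thinning, 2.79% after thinning to 4000 UMIs and −0.534% with the 20% limit, the last chosen after seeing the data, and the Ins2 difference was 2.10 points as a mean over cells. With 24 to 31 cells in a sum, genes in few cells were the least certain.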

Other observations

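The 52 cells with 1% to 30% insulin that were left out for a second hormone were low in the same maturity genes. Their sums in library 1 (30 cells) and library 2 (22 cells) held 114 and 267 non-insulin CPM of Mafa, 76.7 and 159 of Ucn3, 259 and 275 of Slc2a2, 475 and 328 of G6pc2 and 56.2 and 52.9 of Trpm5. Pyy stood at 8639 and 7762 and Rbp4 at 1375 and 1399 in them, above the insulin-low cells with a single hormone. However, 47 of the 52 were left out for Ppy or Sst. As given above, polypeptide-only and somatostatin-only cells held much Pyy, and somatostatin-only cells much Rbp4. The order in these 2 genes is therefore not independent of the rule.

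Neurog3, the factor that starts endocrine differentiation in the embryo, was singled out after its values were seen. It was at 7.84 and 25.6 non-insulin CPM in the insulin-low sums of library 1 and library 2 and at 0 and 0.493 in the insulin-high sums, with 71.4% of its insulin-low UMIs in 3 cells. It is given as a description with no test.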
